A study of Mus musculus with 6 samples.

Results

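The nuclear receptor genes described here are those of the mouse superfamily other than the bile acid receptor FXR, its partner RXRalpha, SHP, LRH-1, PXR, CAR, HNF4A, PPARA and the REV-ERBs. The list holds 36 genes, chosen by name and not by their values, and 34 of the 22180 genes measured on the arrays were matched to it. Nr1h2 and Nr2e3 were matched to no probe set with 1 gene symbol and were not analysed here. Of the 34 genes, 33 were represented by 1 probe set, and for Nr3c2, with 2, the brighter was used. All cells were primary hepatocytes from livers of wild type adult male mice of the C57Bl/6 strain, cultured without serum in William's medium. For 4 h they received either GW4064, a synthetic FXR agonist, at 2 µM, or DMSO, its solvent. Each group held 3 one-colour Affymetrix MoGene-2_0-st arrays numbered 1 to 3, and the series describes 3 independent hepatocyte preparations without saying that a number marks a preparation. Where the arrays are not from separate preparations, the p-values measure technical spread only. Values are log2 intensities that the authors made with RMA (background correction, normalization between arrays and summary per probe set), and they ranged from 0.94 to 13.07.

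Nuclear receptors are transcription factors that bind hormone response elements in DNA through a zinc finger domain, and many of them change activity when a small lipophilic ligand enters their ligand-binding domain. Some act as heterodimers with a retinoid X receptor, as do the liver X, retinoic acid, thyroid hormone, vitamin D and PPAR receptors. Steroid receptors act mainly as homodimers, and orphan receptors such as the COUP-TFs and the NR4A proteins have no settled natural ligand. In liver these proteins adjust cholesterol, lipid, glucose and drug metabolism to hormones and diet, and the transcript levels of the receptors set part of that response.

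Presence was judged against genes of sensory neurons and taste cells, since the arrays carry no detection call here. The 1415 odorant, vomeronasal, trace amine and bitter taste receptor genes had a median DMSO level of 2.03 and a 95th percentile of 3.78, which is called the silent-gene level below. Of the 34 nuclear receptor genes, 25 had a mean DMSO level above it, against 57.2% of all genes. Probe sets differ in how brightly they report the same amount of RNA, so the levels give no order of abundance between receptors.

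The 25 genes above the silent-gene level were Nr1h3, Rxrb, Rara, Rarb, Rarg, Thra, Thrb, Ppard, Pparg, Rora, Vdr, Nr2c1, Nr2c2, Nr2f2, Nr2f6, Esr1, Esr2, Nr3c1, Nr3c2, Esrra, Esrrg, Nr4a1, Nr4a2, Nr5a1 and Nr6a1. The 9 others were Rxrg, Rorb, Hnf4g, Nr2e1, Nr2f1, Pgr, Esrrb, Nr4a3 and Nr0b1, which include receptors best known from brain, retina, the reproductive tract and the adrenal gland. Nearest to the level on its upper side was Nr5a1, the steroidogenic factor SF-1 of adrenal and gonad, at 3.95 ± 0.03 (mean DMSO level ± SD, n = 3 arrays). On the lower side lay Nr2f1 at 3.75 ± 0.09 and Rxrg at 3.71 ± 0.09. With the 99th percentile of the silent genes, 4.83, 16 genes lay above, and Rarb, Rarg, Thra, Vdr, Esr2, Esrrg, Nr4a2, Nr5a1 and Nr6a1 no longer did. Some silent genes reach the level of each of the 25, whose percentiles among the silent genes ran from 96.1 to 99.9.

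**Figure D1:**
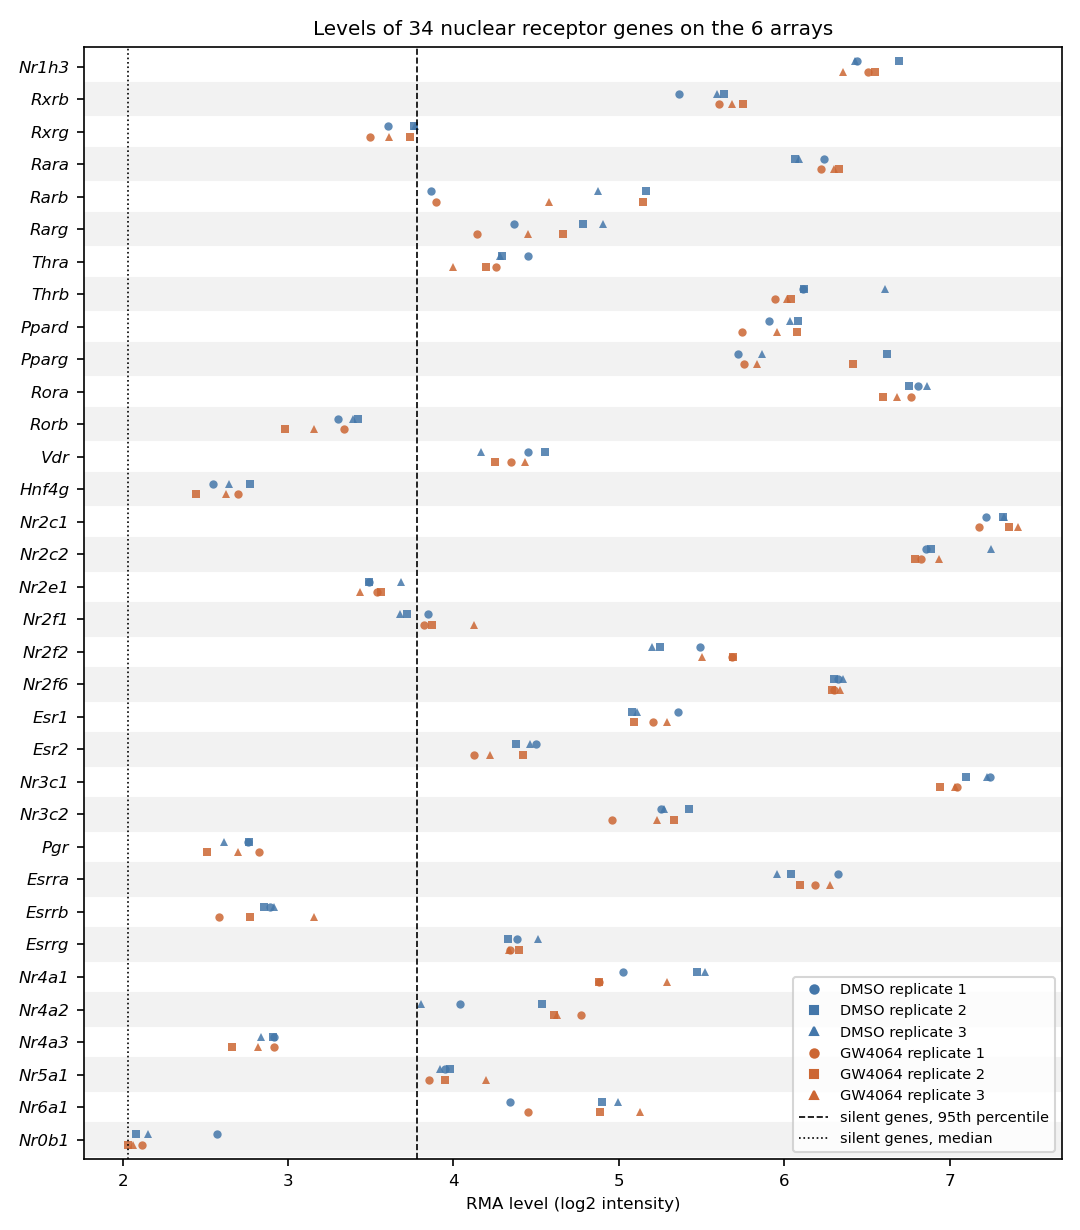
Levels of the 34 receptor genes (x axis, log2 intensity) on the 6 arrays, with DMSO in blue, GW4064 in orange and the marker shape giving the replicate number. The dashed line is the 95th percentile of the silent sensory receptor genes at 3.78 and the dotted line their median at 2.03, and 25 genes have DMSO means to the right of the dashed line.

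No member of the group passed limma's test for GW4064 against DMSO at an adjusted p under 0.05, where 0.0496% of all genes did. With the replicate number as a block no member passed either, against 0.0812% of all genes. At an unadjusted limma p under 0.05 there were 2 members with higher levels, Nr4a2 and Nr2f2 (2.60% of all genes), and 0 with lower levels (3.06% of all genes). The 95% intervals of the 34 folds reached no lower than 0.528 and no higher than 1.90, so a change beyond 2-fold lies outside the unadjusted interval of every measured member. In these same fits the excluded receptor genes Nr0b2 and Nr1i2, which encode SHP and PXR, rose by 2.37 and 1.72 on the log2 scale (limma adjusted p = 1.17e-04 and 0.0352).

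Lower values were in the majority. The log2 change was below 0 in 24 of 34 members, with a median of -0.06, and below 0 in 55.4% of all genes, with a median of -0.02. Of the 25 members above the silent-gene level 16 were lower (64%), and of the 9 others, which were not above it, 8 were lower (88.9%). The count of lower members ran from 20 to 26 with single arrays or pairs left out. In all 3 same-numbered pairs 12 members were lower (18.6% of all genes) and 3 were higher (12.6% of all genes). The GW4064 and DMSO arrays did not overlap for 5 members. Of these, Nr2f2 and Nr4a2 were higher (4.58% of all genes), and Thra, Thrb and Nr3c1 were lower (6.19% of all genes). With the replicate block, 2 members had higher levels at an unadjusted limma p under 0.05 (4.01% of all genes), again Nr2f2 and Nr4a2, and 2 had lower levels (5.12% of all genes), namely Nr4a1 and Rarg.

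**Figure D2:**
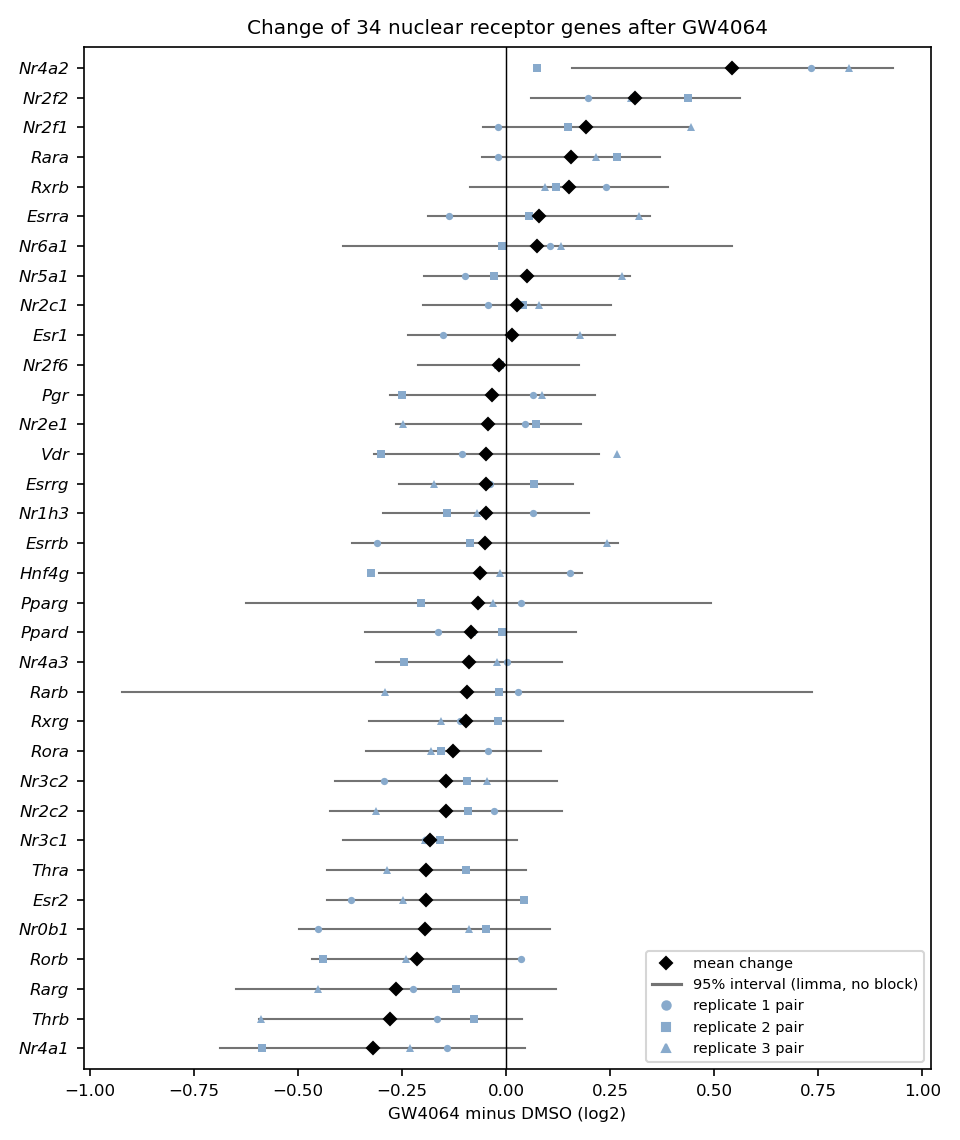
Differences between GW4064 and DMSO (x axis, log2) for the 34 receptor genes, with the mean as a diamond, its 95% interval from limma without the block as a line and the 3 same-numbered pairs as blue markers. Only the intervals of Nr4a2 and Nr2f2 lie wholly on one side of 0, and the widest interval is that of Rarb.

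The NR4A receptors, orphan receptors encoded by immediate early genes that cAMP and stress signals induce, held the highest and the lowest change of the group. Nr4a2, also known as Nurr1, measured 4.04, 4.53 and 3.80 in DMSO replicates 1, 2 and 3 and 4.77, 4.61 and 4.63 with GW4064. All GW4064 arrays lay above all DMSO arrays, but the margin in replicate pair 2 was 0.07 against 0.73 and 0.82 in the others. Its fold was 1.46 (95% interval 1.12 to 1.90, limma adjusted p = 0.751, 0.398 with the replicate block). Its unadjusted limma p was 0.0110, and was over 0.05 without pair 1 (0.101) or pair 3 (0.0623). In DMSO replicate 3 its level lay close to the silent-gene level.

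Nr4a1, also known as Nur77, had the lowest log2 change of the group and did not pass the test either. Its DMSO levels were 5.02, 5.47 and 5.52 and its GW4064 levels 4.88, 4.88 and 5.29. It was lower in every same-numbered pair, although the groups overlapped because DMSO replicate 1 lay below GW4064 replicate 3. The log2 change was -0.32 (SE 0.16, limma adjusted p = 0.928, 0.481 with the block), and -0.19 without pair 2. Nr4a3, the remaining member of the subfamily, stayed under the silent-gene level in both groups, at 2.89 ± 0.04 and 2.80 ± 0.13 (mean ± SD, n = 3 arrays each). Whether Nr4a1 and Nr4a2 differed in their response was not tested.

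The promoters of the NR4A genes are shown because cAMP induces these genes, and the sequences bear on no difference between them. RefSeq's promoter table for GRCm38.p6 has 1 entry each, from which the 250 bases before the start are printed 5′ to 3′ along the gene. Capitals mark TGACG, the core of the cAMP response element, or its reverse complement CGTCA. They lie at chr15:101266596-101266845 (plus strand) for Nr4a1, chr2:57124004-57124253 (minus strand) for Nr4a2 and chr4:48045055-48045304 (plus strand) for Nr4a3.
Nr4a1: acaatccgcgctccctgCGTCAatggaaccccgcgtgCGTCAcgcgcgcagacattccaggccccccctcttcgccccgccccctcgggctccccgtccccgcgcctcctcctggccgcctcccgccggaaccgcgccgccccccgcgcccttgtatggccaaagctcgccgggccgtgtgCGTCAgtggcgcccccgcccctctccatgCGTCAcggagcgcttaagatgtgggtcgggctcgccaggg
Nr4a2: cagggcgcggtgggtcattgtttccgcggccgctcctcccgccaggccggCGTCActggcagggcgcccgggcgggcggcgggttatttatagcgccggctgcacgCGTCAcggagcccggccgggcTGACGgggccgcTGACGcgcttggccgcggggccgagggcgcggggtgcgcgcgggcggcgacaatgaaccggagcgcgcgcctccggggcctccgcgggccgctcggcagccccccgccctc
Nr4a3: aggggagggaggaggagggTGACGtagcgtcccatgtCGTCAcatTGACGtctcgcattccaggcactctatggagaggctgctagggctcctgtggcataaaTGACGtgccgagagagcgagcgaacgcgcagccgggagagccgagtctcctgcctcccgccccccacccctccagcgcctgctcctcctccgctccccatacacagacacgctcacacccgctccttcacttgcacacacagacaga
Each of the 3 promoters holds 4 such cores. At least 4 were found in 0.231% of all 32851 promoters in the table, each from 250 bases before the start to 50 after it, and at least 1 in 20.8%. The minimum of 4 was set from these promoters.

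The COUP-TF genes encode orphan receptors that often repress transcription from elements shared with other nuclear receptors. Nr2f2, which encodes COUP-TFII, measured 5.49, 5.25 and 5.20 in DMSO and 5.69, 5.69 and 5.50 with GW4064. The groups did not overlap, but DMSO replicate 1, the highest of its group, lay just under GW4064 replicate 3. The fold was 1.24 (95% interval 1.04 to 1.48, limma adjusted p = 0.811, 0.392 with the block). Its unadjusted limma p was 0.0208, and over 0.05 without DMSO replicate 2 (0.0623), DMSO replicate 3 (0.0725), GW4064 replicate 1 (0.0652), GW4064 replicate 2 (0.0633) or pair 2 (0.137). Nr2f2 is also expressed by stellate and endothelial cells. The mean level of 9 stellate and fibroblast markers was 3.71, 3.82 and 3.73 in DMSO and 3.80, 3.86 and 3.87 with GW4064. Of these 9 markers, 4 lay above the silent-gene level. The mean of 8 endothelial markers, 7 of them above it, was 4.65, 4.88 and 4.65 in DMSO. With GW4064 the endothelial mean was 4.65, 4.88 and 4.60. The part of either cell type in the Nr2f2 difference was not tested. Nr2f6 had one of the flattest profiles of the group, with levels of 6.32, 6.30 and 6.35 in DMSO and 6.30, 6.29 and 6.34 with GW4064. Its log2 change was -0.02 (SE 0.09), and its 95% interval of the fold ran from 0.863 to 1.13. Nr2f1 was at the edge of the silent-gene level and had a log2 change of 0.19 (SE 0.11).

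The thyroid hormone receptor genes Thra and Thrb were lower in every same-numbered pair. Thrb, the main isoform gene of liver, measured 6.11, 6.12 and 6.61 in DMSO and 5.95, 6.04 and 6.02 with GW4064. DMSO replicate 3 stood above the other arrays, and pair 3 accounted for the largest difference, -0.59 against -0.17 and -0.08. The log2 change was -0.28 (SE 0.14, limma adjusted p = 0.928, 0.555 with the block), and it was -0.11 without DMSO replicate 3 and -0.12 without pair 3. Thra measured 4.45, 4.29 and 4.28 in DMSO and 4.26, 4.20 and 4.00 with GW4064, a log2 change of -0.19 (SE 0.11, adjusted p = 0.941, 0.560 with the block), or -0.12 without GW4064 replicate 3. The groups of both genes were separate, and neither difference passed the test. Of 5 measured genes that thyroid hormone regulates, 0 passed in either direction (0.0496% of all genes). The deiodinase gene Dio1 had the smallest p of the 5, at a log2 change of -0.25 (SE 0.18).

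Among the steroid receptors the glucocorticoid receptor gene Nr3c1 had the most even difference. It measured 7.24, 7.10 and 7.23 in DMSO and 7.05, 6.94 and 7.03 with GW4064. The pairs differed by -0.20, -0.16 and -0.20, and the groups did not overlap. The log2 change was -0.18 (SE 0.09, limma adjusted p = 0.928, 0.553 with the block). Of 7 glucocorticoid target genes, 6 were lower and 1 was higher, and none passed (0.0496% of all genes). Their median log2 change was -0.37, against -0.02 over all genes, of which 55.4% were lower. A link between Nr3c1 and these target genes was not tested. Tsc22d3, which encodes the glucocorticoid-induced leucine zipper GILZ, had -0.42 (SE 0.11, adjusted p = 0.601) and Zbtb16, a zinc finger gene, -0.39 (SE 0.10, adjusted p = 0.637).

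The mineralocorticoid receptor gene Nr3c2 had a log2 change of -0.14 (SE 0.12). The probe set of Nr3c2 that was not used lay near the silent median, at 2.17 ± 0.21 in DMSO, and had a difference of 0.06. The estrogen receptor gene Esr1 had 0.01 (SE 0.11) at a DMSO level of 5.18 ± 0.15. Esr2, the beta form, measured 4.50, 4.38 and 4.47 in DMSO and 4.13, 4.42 and 4.22 with GW4064. It was lower in pairs 1 and 3 and slightly higher in pair 2, and its log2 change was -0.19 (SE 0.11, limma adjusted p = 0.941), or -0.13 without GW4064 replicate 1, -0.10 without pair 1 and -0.31 without pair 2. Pgr, the progesterone receptor gene, was not above the silent-gene level.

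Receptors that sense sterols and fatty acids and share RXR as partner showed small differences. Nr1h3, which encodes the oxysterol receptor LXRalpha, measured 6.44, 6.69 and 6.43 in DMSO and 6.50, 6.55 and 6.36 with GW4064. The arrays of the groups interleaved, and the log2 change was -0.05 (SE 0.11). Of 8 LXR target genes, 3 were higher and 5 lower (55.4% of all genes were lower), and none passed (0.0496% of all genes). The smallest p values belonged to Abcg5 and Abcg8, the subunit genes of the sterol exporter, at 0.47 (SE 0.13, limma adjusted p = 0.641) and 0.29 (SE 0.10, adjusted p = 0.770). Ppard, a fatty acid sensor of broad expression, had -0.09 (SE 0.11), and Pparg, the adipogenic PPAR, -0.07 (SE 0.25). Rxrb, itself an RXR, measured 5.37, 5.63 and 5.59 in DMSO and 5.60, 5.75 and 5.68 with GW4064. It was higher in each pair, by 0.24, 0.12 and 0.09, but GW4064 replicate 1 lay below DMSO replicate 2. Its log2 difference was 0.15 (SE 0.11, limma adjusted p = 0.963), and 0.07 without DMSO replicate 1.

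The retinoic acid receptor genes had differing signs. Rara measured 6.24, 6.07 and 6.09 in DMSO and 6.22, 6.33 and 6.30 with GW4064. It was higher in pairs 2 and 3 and level in pair 1, with a log2 change of 0.15 (SE 0.09, limma adjusted p = 0.961), or 0.24 without pair 1 and 0.10 without pair 2. Rarg measured 4.37, 4.78 and 4.90 in DMSO and 4.14, 4.66 and 4.45 with GW4064. It was lower in all 3 pairs, and the overlap of the groups came from DMSO replicate 1, which was low like its GW4064 counterpart. Its log2 change was -0.26 (SE 0.17, adjusted p = 0.961, 0.491 with the block). It was -0.42 without DMSO replicate 1, -0.16 without DMSO replicate 3, -0.13 without GW4064 replicate 1 and -0.17 without pair 3. Rarb is described with the replicate numbers below.

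The remaining orphan and vitamin receptors also held no member that passed the test for GW4064. Rora, which activates clock and lipid genes from single-site elements, had a log2 change of -0.13 (SE 0.09), and Rorb, its relative of retina and brain, measured 3.30, 3.42 and 3.40 in DMSO and 3.34, 2.98 and 3.16 with GW4064. Rorb was lower in pairs 2 and 3, by 0.44 and 0.24, under the silent-gene level throughout (limma adjusted p = 0.932). Its difference of -0.21 was -0.13 without GW4064 replicate 2, -0.34 without pair 1 and -0.10 without pair 2. Nr2c1 and Nr2c2, which encode the testicular receptors TR2 and TR4, had 0.03 (SE 0.10) and -0.14 (SE 0.12). Nr2c2 measured 6.86, 6.88 and 7.25 in DMSO and 6.83, 6.79 and 6.94 with GW4064, and replicate 3 was the highest in both groups. Without DMSO replicate 3 the Nr2c2 difference was -0.02, and without pair 3 it was -0.06. The vitamin D receptor gene Vdr had -0.05 (SE 0.12), and the estrogen-related receptor genes Esrra and Esrrg, of the mitochondrial programme, had 0.08 (SE 0.12) and -0.05 (SE 0.09). Nr5a1 had 0.05 (SE 0.11) and Nr6a1, the germ cell nuclear factor, 0.07 (SE 0.21). Hnf4g, Nr2e1, Pgr, Esrrb, Nr4a3, Rxrg and Nr0b1, none above the silent-gene level, had log2 changes between -0.20 and -0.03.

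The members were also compared between replicate numbers. The highest minus the lowest mean of same-numbered arrays exceeded the size of the GW4064 difference in 25 of 34 members (73.5%), a share below the 78.8% of all genes. A range over 3 means and a difference of 2 means are not the same measure, so this share says nothing particular about the receptors. In a limma F test of the replicate number beside the treatment, 2 members passed at an adjusted p under 0.05, where 1.07% of all genes did. These were Rarb and Pparg. At an unadjusted p under 0.05 there were 5 members (14.8% of all genes), the others being Nr6a1, Rarg and Nr4a1.

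**Figure D3:**
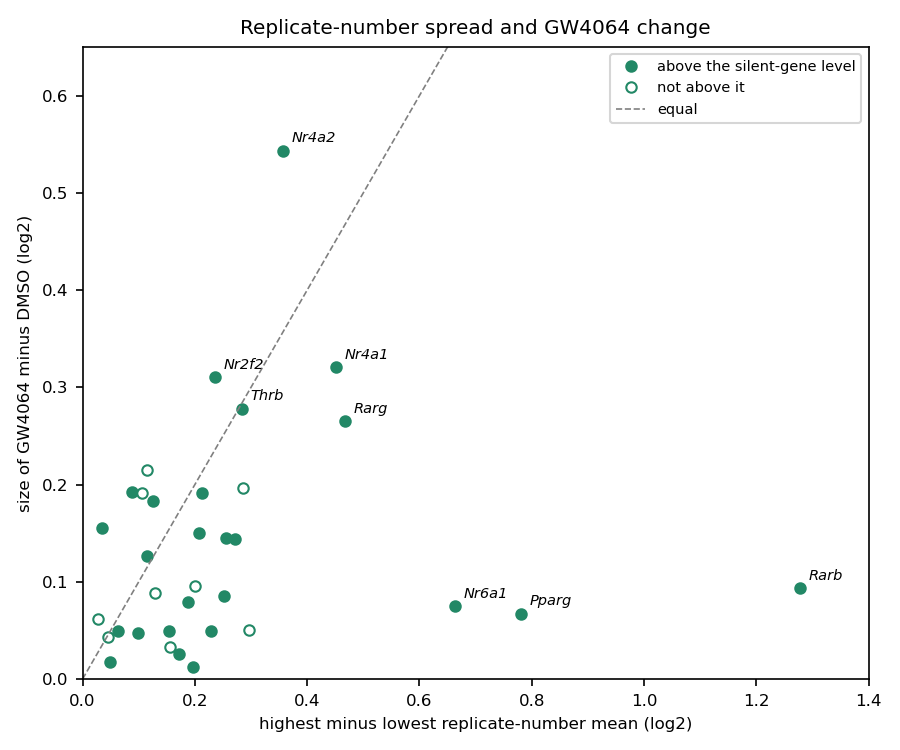
Size of the GW4064 difference (y axis, log2) against the highest minus the lowest mean of same-numbered arrays (x axis, log2) for the 34 receptor genes, with open circles for genes not above the silent-gene level. Rarb, Pparg and Nr6a1 lie far to the right of the dashed line of equality, with spreads of 1.28, 0.78 and 0.66, and Nr4a2 is the highest point at 0.54.

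Rarb encodes the beta form of the retinoic acid receptor and is itself a gene that retinoic acid induces. It measured 3.86, 5.16 and 4.87 in DMSO and 3.89, 5.15 and 4.58 with GW4064. Replicate 1 was the lowest in both groups, near the silent-gene level, and replicate 2 the highest. The same-numbered means spanned 1.28 on the log2 scale, or 2.42-fold, while same-numbered arrays differed by 0.03, -0.02 and -0.29 (limma adjusted p of the replicate number = 0.0230). The log2 change with GW4064 was -0.09 (SE 0.37, adjusted p = 0.998, 0.817 with the block). The replicate-number call was lost without DMSO replicate 2 or 3 or without GW4064 replicate 2 or 3, at adjusted p values of 0.0658, 0.0742, 0.0823 and 0.0561, and without pair 1 (0.167) or pair 2 (0.0751).

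The other genes of the retinoic acid target list with a call between replicate numbers were Cyp26a1 and Dhrs3. Thus 3 of the 5 measured genes, Rarb included, were called, where 1.07% of all genes were. Rarb had already been called as a member, so the count is not independent of its call. Cyp26a1, whose enzyme degrades retinoic acid and whose DMSO mean was not above the silent-gene level, measured 3.17, 4.46 and 3.52 in DMSO and 3.57, 5.73 and 4.36 with GW4064, a span of same-numbered means of 3.30-fold (adjusted p = 0.0340). Dhrs3, whose enzyme returns retinaldehyde to retinol, measured 5.81, 6.99 and 6.79 in DMSO and 5.48, 6.78 and 6.02 with GW4064, a span of 2.37-fold (adjusted p = 0.0429). In all 3 genes and both groups replicate 1 was the lowest, replicate 2 the highest and replicate 3 between them. Neither enzyme gene passed for GW4064: the log2 differences were 0.84 (SE 0.50, adjusted p = 0.961, 0.247 with the block) and -0.44 (SE 0.36, adjusted p = 0.991, 0.398 with the block). Both calls between numbers were lost without DMSO replicate 3, GW4064 replicate 2 or GW4064 replicate 3, with adjusted p values from 0.0629 to 0.136, and that of Dhrs3 was also lost without each of the other 3 arrays (0.0574 to 0.0940).

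The promoters of Rarb and Cyp26a1 are shown because they hold the type of element that RAR and RXR bind. Dhrs3, which had the same order over the replicate numbers, has 3 entries in the promoter table and the repeat in 0 of them, and the entries of the list's genes Cyp26b1 and Stra6 also hold none. Whether retinoic acid had a part in the replicate differences was not tested. The 120 bases before the start, from RefSeq's table for GRCm38.p6, lie at chr14:16575477-16575596 (minus strand) for Rarb and chr19:37697688-37697807 (plus strand) for Cyp26a1. They are printed 5′ to 3′ along the gene, and capitals mark 2 receptor hexamers repeated in the same direction with 5 bases between them.
Rarb: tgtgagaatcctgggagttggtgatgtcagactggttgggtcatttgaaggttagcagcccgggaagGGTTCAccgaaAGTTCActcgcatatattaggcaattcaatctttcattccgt
Cyp26a1: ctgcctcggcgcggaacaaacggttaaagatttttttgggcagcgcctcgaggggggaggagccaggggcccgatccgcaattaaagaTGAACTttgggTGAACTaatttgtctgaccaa
The hexamers searched were AGGTCA or GGGTCA or AGTTCA or GGTTCA on either strand. The repeat runs from base -53 to -37 relative to the start in Rarb, on the strand of the gene, and from -32 to -16 in Cyp26a1, on the other strand. It was found in 0.0974% of all 32851 promoters in the table, and among the 50 entries of 32 list members in that of Rarb alone. The repeat with 1 to 4 bases between the hexamers was in 0.222%, 0.268%, 0.0396% and 0.0822% of all promoters and in 0 of the 50. The inverted repeat with 1 base between, the arrangement FXR is known to bind with RXR, was in 0.0365% of all promoters and also in 0 of the 50.

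Pparg measured 5.72, 6.62 and 5.87 in DMSO and 5.76, 6.42 and 5.83 with GW4064. Replicate 2 was the highest in both groups, and replicates 1 and 3 lay close together. The same-numbered means spanned 1.72-fold (limma adjusted p of the replicate number = 0.0471), against same-numbered differences of 0.04, -0.21 and -0.03. The call was lost without any single array, with adjusted p values from 0.0503 to 0.225. Among 7 measured PPAR target genes 3 were called between replicate numbers (1.07% of all genes), and 0 for GW4064 (0.0496% of all genes).

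These were Cd36, a fatty acid uptake gene, Fabp4, a fatty acid binding protein gene, and Pdk4, which restrains glucose oxidation. Cd36 measured 7.16, 8.42 and 7.04 in DMSO and 6.67, 8.25 and 6.59 with GW4064 (span 2.86-fold, adjusted p = 0.0122). Like Pparg it was the highest in replicate 2. Fabp4 measured 5.80, 6.26 and 4.57 in DMSO and 5.54, 6.20 and 4.92 with GW4064 (span 2.81-fold, adjusted p = 0.0288), again the highest in replicate 2, but with replicate 3 clearly the lowest. Pdk4 measured 6.17, 7.13 and 7.04 in DMSO and 6.14, 7.04 and 6.998 with GW4064 (span 1.91-fold, adjusted p = 0.0231), and it was low in replicate 1 only. The 3 profiles therefore were not alike. Each of these calls was lost without DMSO replicate 3, GW4064 replicate 2 or GW4064 replicate 3 (adjusted p from 0.0558 to 0.122). That of Fabp4 was also lost without DMSO replicate 2 (0.103), and that of Pdk4 without each of the other 3 arrays (0.0549 to 0.0658).

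**Figure D4:**
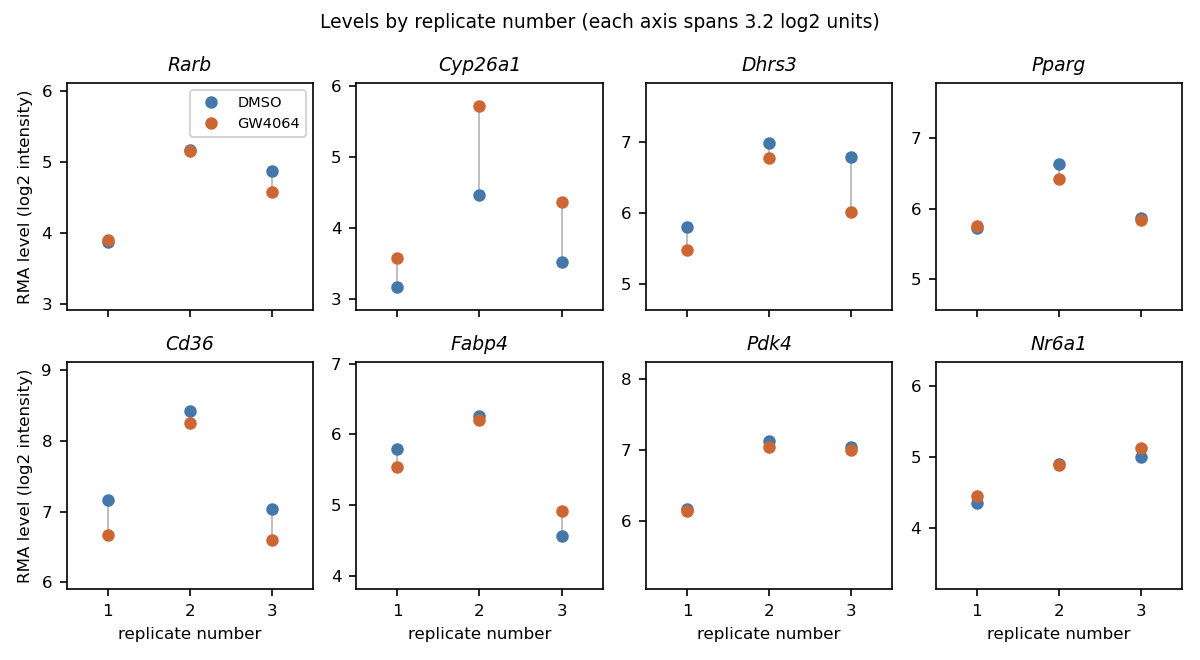
Levels (y axis, log2 intensity, with the same span in each panel) of Rarb, Pparg, Nr6a1 and 5 retinoic acid or PPAR target genes by replicate number (x axis), with DMSO in blue and GW4064 in orange. Grey lines join same-numbered arrays, which for Rarb lie within 0.29 of each other while the numbers differ by up to 1.28.

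Nr6a1 came next among the members, with 4.34, 4.90 and 4.99 in DMSO and 4.45, 4.89 and 5.13 with GW4064. Replicate 1 was the lowest in both groups, and the span of 1.58-fold did not pass (limma adjusted p = 0.0721). Rarg and Nr4a1, with spans of 1.38-fold and 1.37-fold, were also the lowest in replicate 1 of both groups or level with it (adjusted p = 0.202 and 0.303). For the thyroid hormone, glucocorticoid and LXR receptor genes the spans were between 1.09-fold and 1.22-fold and none was called. Of their measured target genes, 1 of 5, 1 of 7 and 1 of 8 were called between replicate numbers (1.07% of all genes). Cyp24a1 and S100g, the vitamin D targets, held 1 call. None of these target gene calls was recomputed without single arrays.

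The coregulators through which nuclear receptors act were likewise without a call for GW4064, where 0.0496% of all genes were called. At that share, a list of this size without a call says nothing particular about the coregulators. Of 22 measured genes, 8 were higher and 14 lower (55.4% of all genes were lower). Their median log2 change was -0.06, against -0.02 over all genes. Nrip1, which encodes the corepressor RIP140, measured 7.33, 7.58 and 7.15 in DMSO and 7.82, 8.03 and 7.81 with GW4064. The groups did not overlap, and the log2 change was 0.53 (SE 0.13, limma adjusted p = 0.534, 0.170 with the replicate block). Lcor, a ligand-dependent corepressor gene, measured 8.42, 8.44 and 8.27 in DMSO and 8.75, 8.72 and 8.69 with GW4064, also without overlap, a change of 0.35 (SE 0.09, adjusted p = 0.638, 0.314 with the block). Ppargc1a, which encodes the coactivator PGC-1alpha, measured 5.58, 5.72 and 6.30 in DMSO and 4.96, 5.42 and 5.65 with GW4064. It was lower in all 3 pairs although the groups overlapped, with a difference of -0.52 (SE 0.22, adjusted p = 0.863, 0.247 with the block). Among 14 genes that make or remove receptor ligands 7 were higher and 7 lower (55.4% of all genes were lower). The smallest p was that of the retinol dehydrogenase gene Rdh10 at 0.43 (SE 0.15, limma adjusted p = 0.789). ROR targets were lower in 4 of 4 (55.4% of all genes), with Arntl at -0.38 (SE 0.12, adjusted p = 0.751). Of these, Elovl3 was not above the silent-gene level, and Npas2 differed by 0.02, 0.20 and -0.62 in the pairs. The 5 ERR targets had a median change of 0.00, and of the 2 vitamin D targets 1 was higher and 1 lower.

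Marker genes were read beside these results because several receptors, among them Rarb, Pparg, Vdr and Nr2f2, are also expressed by other liver cells. All 9 measured hepatocyte markers lay above the silent-gene level, with a mean level per array of 9.44 to 9.51 in DMSO and 9.34 to 9.41 with GW4064. Above that level were 4 of 8 macrophage, 4 of 9 stellate and fibroblast, 7 of 8 endothelial, 3 of 5 cholangiocyte and 1 of 5 lymphocyte markers. The mean of the stellate list was 3.71 to 3.82 in DMSO and 3.80 to 3.87 with GW4064, and that of the cholangiocyte list 4.37 to 4.49 and 4.39 to 4.61. No marker was called for GW4064, where 0.0496% of all genes were.

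The mean of the endothelial list was the highest in replicate 2 of both groups, as Pparg, Cd36 and Fabp4 were. It was 4.65, 4.88 and 4.65 in DMSO and 4.65, 4.88 and 4.60 with GW4064. Stab1, Stab2, Pecam1, Kdr, Lyve1 and Cdh5 had their highest same-numbered means in replicate 2, although Stab1 was nearly level at 4.70, 4.75 and 4.65. Clec4g, not above the silent-gene level, had its highest in replicate 3. Oit3 had its lowest in replicate 2, at 5.03. None of these endothelial markers was called between replicate numbers. The 8 macrophage markers did not share an order. Cd68, not restricted to macrophages, was the lowest in replicate 2, with 9.63, 8.53 and 10.02 in DMSO and 9.86, 8.46 and 9.93 with GW4064. It was the 1 marker called between replicate numbers, where 1.07% of all genes were (limma adjusted p = 0.0141, not recomputed without single arrays). Vsig4, Marco and Adgre1 had their highest same-numbered means in replicate 2, at 3.04, 4.56 and 3.11, and were not called. Csf1r and Timd4 had their lowest there, at 3.76 and 2.65, and Clec4f and Cd5l were the highest in other replicates. Vsig4, Adgre1, Timd4 and Cd5l were not above the silent-gene level. The part of other cell types in the replicate differences was not tested, and in bulk RNA a different number of cells and a different amount of RNA per cell cannot be told apart.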

How the data were processed

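The deposited table holds log2 intensities of 41345 probe sets on 6 arrays, which the authors made with RMA. RMA and Partek are listed in the submitters' processing notes without versions. No source gives the log base, which the values' range set at base 2. The platform annotation gave 23521 probe sets exactly 1 gene symbol, and the brightest per gene over all arrays left 22180 genes. Array medians lay within 0.053 of each other, and the number of arrays limits the precision.

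GW4064 and DMSO were compared with limma 3.58.1 in R 4.3.3 (two-sided, Benjamini-Hochberg over all genes, threshold 0.05), with the replicate number as a block as the alternative. The numbers were tested by limma's F test beside the treatment. Deviations of same-numbered arrays from their group means correlated at 0.26, 0.34 and 0.45, over the 0.1 taken to show pairing; the numbers come from the titles. Permuting 3 and 3 arrays exactly gives p = 0.10 at the lowest. The fits were checked on simulated data, drawn independently for each array apart from added differences larger than any GW4064 change of a member. The check therefore does not cover pairing over all genes or smaller changes. Intervals are limma's 95%, without the block.

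Values in each array are given for members called in either fit, the 8, 5 and 6 members with the smallest p without the block, with it and for the replicate number, and those above the silent-gene level of the liver X, thyroid hormone, retinoid, glucocorticoid and COUP-TF families. At most 2 genes of each context list follow by p. Cyp26a1, Dhrs3, Cd36, Fabp4, Pdk4, Ppargc1a, Npas2, Elovl3, Cd68, Vsig4, Marco, Adgre1, Csf1r, Timd4, Clec4f and Cd5l were named after their values were seen. The same holds for the 8 endothelial markers. Members, lists and tests were chosen with earlier results of these data known. Promoters and their motifs were read from RefSeq's tables.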

Additional observations from a re-analysis of the deposited data

How the results depend on the processing

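No member passed for GW4064 under any of the 16 alternatives: quantile normalization, centring, 2 filters on dim genes, another variance prior, the mean of a gene's probe sets, the replicate block (0 members), each of 6 arrays left out and each of 3 pairs left out. The count called between replicate numbers, 2 members, was 0 to 1 with single arrays left out, 1 without pair 1 or pair 3 and 0 without pair 2; it was 3, with Nr6a1 added, under the filter at the median (669 genes called in all) and under a trended robust prior (1856, against 238). Above the silent-gene level lay 16 members with the 99th percentile as reference and 24 to 29 under the other alternatives. Signs turned for members with small changes, none of them called. Nr2f6 was 0.0023 after quantile normalization. With single arrays left out, Rarb ran from -0.48 to 0.23, Pparg from -0.27 to 0.21, Nr6a1 from -0.13 to 0.26 and Nr1h3 from -0.095 to 0.037; Pparg was 0.0017 without pair 2 and Rarb 0.0061 without pair 3. The replicate block changed no adjusted call of a member. The interval bounds of 0.528-fold, from Rarb, and 1.90-fold, from Nr4a2, are the outermost of the group and not a detection limit. With 3 arrays per group, changes within the interval of each member may have gone undetected.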
